A study of Mus musculus with 3 samples.

Results

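Setd1a binding was examined at homeobox, POU and Pax genes in cultured quiescent adult NSCs of the mouse DG. These genes were chosen by name and not by any measured value. They are the protein-coding genes on chr1 to chr19 of the GENCODE M21 annotation (mm10) that belong to the Hoxa, Hoxb, Hoxc, Hoxd, Dlx, Lhx, Nkx, Pax, sine oculis homeobox (*Six3* and its relatives), Irx, Emx, Otx, Meis, Pbx, Gsx, Msx and Pou families, 118 of 20807 protein-coding genes on these chromosomes. Of the 118 genes, 39 form the 4 Hox clusters and 79 lie elsewhere. The name rule leaves out homeobox genes of other families, and it leaves out *Pou3f4*, which lies on the X chromosome.

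The cells were NPCs derived from the DG of Hopx-CreERT2::Setd1afl/fl::H2B-GFP mice aged 7 to 8 weeks, and all libraries are labelled WT. They were expanded with FGF2 and EGF and then made quiescent with BMP4 and FGF2 at 20 ng/ml each, without EGF, and were taken at day 5. All of them therefore carry the floxed *Setd1a* alleles and the reporter. In the culture scheme, lentivirus with Cre-GFP or GFP was added at day 2, and the paper calls cells with Cre-GFP *Setd1a*-deficient and cells with GFP WT. It describes the cells profiled here as WT. The sources used here do not state whether these cultures received the GFP virus or none. CUT & RUN, in which an antibody guides a nuclease to cut the DNA next to its target in permeabilized cells, was done with a Setd1a antibody in 2 libraries and with rabbit IgG in 1 library.

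The values analysed are the positions of 6969 Setd1a peaks, which the authors kept because they were found in both Setd1a libraries. The list has no height per peak, no separate values for the libraries or IgG and no read depth, so there is no replicate error, and no test between groups can be made. All shares below are descriptions, with 95% Wilson confidence intervals that cover counting over genes only. A gene absent from the list had no shared peak at the unknown depth of these libraries. A peak list from a whole culture does not tell binding in all cells from binding in some of them. To describe the culture, peaks within 1000 bp of a transcription start site (TSS) were counted for marker genes of cell types. Of 10 neural stem cell markers 7 had one (*Sox2*, *Nes*, *Vim*, *Hes1*, *Gfap*, *Notch1* and *Id4*), but *Hopx*, *Slc1a3* and *Fabp7* did not. Such a peak was found for 0 of 5 neuronal and 0 of 4 microglial markers. It was found for 3 of 6 markers of the oligodendrocyte lineage (*Olig1*, *Olig2* and *Pdgfra*). Over all protein-coding genes the share was 22.5%. The Wilson interval lay above this share for the stem cell markers and included it for each of the other lists. These counts therefore do not establish the cell type. A peak at a promoter is not a level of RNA.

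Setd1a is the catalytic subunit of a complex that methylates lysine 4 of histone H3, a mark found at active promoters. Homeobox genes encode transcription factors that bind DNA through a homeodomain, and Pax proteins bind through a paired domain, in some members together with a homeodomain. They give cells their position and identity in the embryo. Hox genes pattern the body axis from the hindbrain backwards and are not known as forebrain regulators, whereas *Pax6*, *Lhx2*, *Emx2*, *Otx1* and the Pou3f genes act in the developing forebrain, which includes the hippocampus.

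A Setd1a peak lay within 1000 bp of a TSS for 9 of the 118 genes, a share of 7.63% (4.06% to 13.9%). The share over all protein-coding genes was 22.5% (4682 of 20807). The 9 genes were *Lhx2*, *Otx1*, *Pbx3*, *Irx5*, *Pax6*, *Pax5*, *Pou3f3*, *Pou2f1* and *Lhx4*, each with a peak of its own. Where a gene had several peaks, the one nearest to a TSS was used for the widths, base composition and motifs below. None of the 39 Hox genes was among them. Outside the Hox clusters the share was 11.4% (9 of 79, 6.11% to 20.3%). A peak overlapped a TSS for 3 of the 118 genes, or 2.54%, beside 17.2% of all genes, and lay within 3000 bp for 11, or 9.32%, beside 24.1%.

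**Figure D1:**
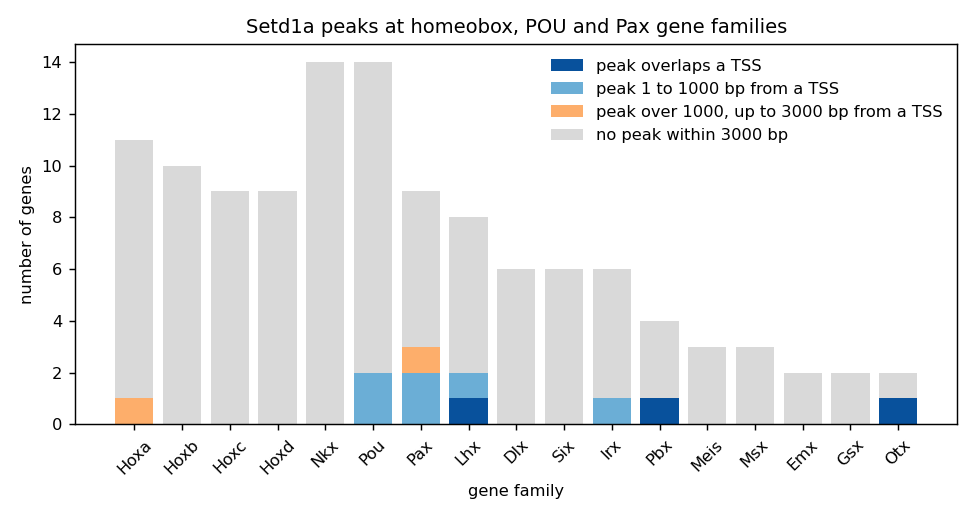
Number of genes in each family (y axis) by the distance of the nearest Setd1a peak to a TSS, for the 17 families on the x axis. Colour reaches 3 genes at most in a family of up to 14, and 11 of the 118 genes carry any colour.

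The DNA under these peaks is shown first, because its base composition was not part of the choice of genes. Printed is the stretch of 120 bases nearest to the middle of each peak that is free of annotated exons of coding genes. At *Lhx2*, whose peak does not leave 120 such bases, 60 are printed. Each stretch is on the strand of the gene, 5′ to 3′, with each CpG dinucleotide in capitals. The sequences were read from the GRCm38 reference, the assembly of mm10. The peaks at *Pax6* and *Pax5* lie wholly within annotated exons and are not printed.
*Lhx2*, chr2:38350699-38350758, plus strand, ending at the base before the TSS: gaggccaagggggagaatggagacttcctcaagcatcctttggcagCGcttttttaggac
*Otx1*, chr11:22001428-22001547, minus strand, from 68 to 187 bases after the TSS: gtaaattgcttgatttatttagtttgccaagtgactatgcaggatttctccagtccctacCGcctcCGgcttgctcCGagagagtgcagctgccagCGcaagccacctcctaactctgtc
*Pbx3*, chr2:34372856-34372975, minus strand, from 167 to 286 bases after the TSS: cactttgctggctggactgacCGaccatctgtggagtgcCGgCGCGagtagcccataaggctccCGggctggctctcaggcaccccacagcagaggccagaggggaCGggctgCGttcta
*Irx5*, chr8:92357157-92357276, plus strand, upstream of the TSS: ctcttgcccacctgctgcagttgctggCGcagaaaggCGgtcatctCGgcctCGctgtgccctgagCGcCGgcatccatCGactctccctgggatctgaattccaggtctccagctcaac
*Pou3f3*, chr1:42695404-42695523, plus strand, upstream of the TSS: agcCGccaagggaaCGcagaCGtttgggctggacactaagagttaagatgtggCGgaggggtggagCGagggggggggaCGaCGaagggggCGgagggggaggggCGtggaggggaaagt
*Pou2f1*, chr1:166003181-166003300, minus strand, upstream of the TSS: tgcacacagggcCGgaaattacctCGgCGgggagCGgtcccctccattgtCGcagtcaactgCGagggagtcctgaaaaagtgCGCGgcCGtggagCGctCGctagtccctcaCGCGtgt
*Lhx4*, chr1:155742757-155742876, minus strand, upstream of the TSS: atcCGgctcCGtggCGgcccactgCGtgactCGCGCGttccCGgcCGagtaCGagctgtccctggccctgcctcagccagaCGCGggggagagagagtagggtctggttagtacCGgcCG

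Of these stretches, that at *Lhx4* holds the most CpG dinucleotides with 14, followed by *Pou2f1* with 13, while that at *Otx1* holds 4 and the shorter one at *Lhx2* holds 1. Over the whole intervals, the peak at *Pou2f1* had the highest ratio of observed to expected CpG, 1.06, and that at *Lhx2* the lowest, 0.409. The ratio compares the CpG count with the one its C and G content would give. The median over the 9 peaks was 0.768, with a GC content of 65.9%. Over the 3999 peaks that were the nearest of a protein-coding gene within 1000 bp, the medians were 0.821 and 63.7%.

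The peaks differed in width and in their place relative to the TSS. Widths ran from 250 bp at *Lhx2* to 1114 bp at *Otx1*, with a median of 605 bp beside 536 bp for the 3999 promoter peaks. Only the peaks at *Lhx2*, *Otx1* and *Pbx3* overlapped a TSS of their gene. Those at *Irx5*, *Pou3f3*, *Pou2f1*, *Lhx4* and *Pax5* lay upstream of the nearest TSS of their gene, although the peaks at *Lhx4* and *Pax5* were still inside longer transcripts, and that at *Pax6* lay downstream.

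**Figure D2:**
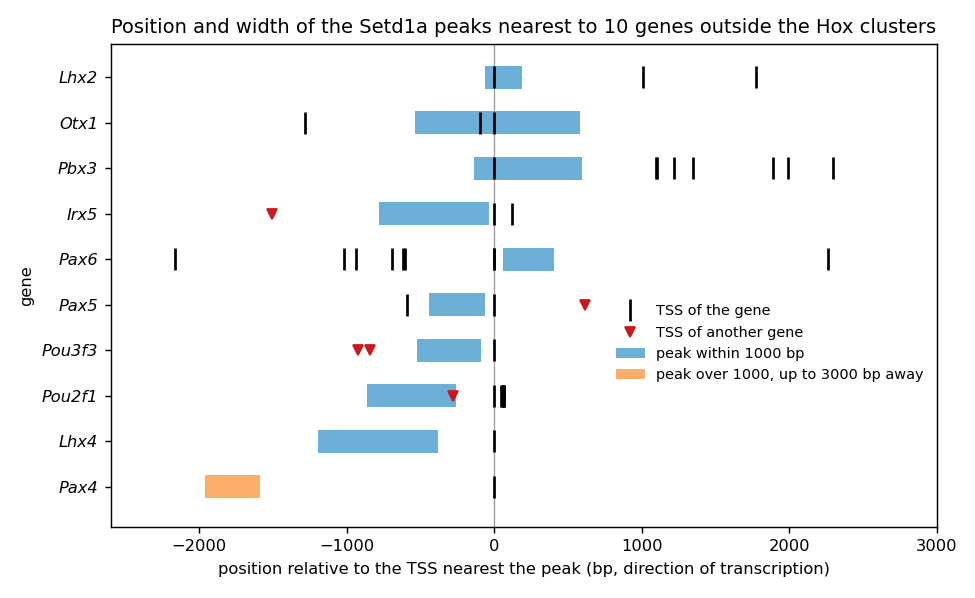
Position of the nearest Setd1a peak at the 9 genes with a peak within 1000 bp (blue) and at *Pax4* (orange, over 1000 and up to 3000 bp away), in bp from the TSS nearest to the peak along the direction of transcription. Ticks are annotated TSSs of the gene (for *Pax4* the nearest one) and triangles TSSs of other genes within 1000 bp of the peak. Peaks overlap the TSS at the 3 uppermost genes and lie to its left, upstream, at 5 of the other 6 blue bars.

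Among the genes of the forebrain, *Otx1*, which takes part in cortical development, had the widest peak. On chromosome 11 it ran from 22001036 to 22002149, wider than 94.8% of all peaks, and it covered the TSS at 22001615 with its midpoint 22 bp inside the gene. All 3 annotated TSSs of *Otx1* lay within 1000 bp of it. *Otx2*, the other Otx gene and a regulator of the anterior brain, had its nearest peak 498.1 kb away.

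*Lhx2*, a LIM homeobox gene needed for the formation of the hippocampus and cortex, had a peak of 250 bp on chromosome 2, from 38350698 to 38350947. Only 5.01% of all peaks were narrower. It overlapped the TSS at 38350759, that of the principal transcript, and 2 of the 7 annotated TSSs lay within 1000 bp of it. The most upstream start of *Lhx2*, at 38339281, lay 11417 bp from the peak.

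*Pax6*, a regulator of radial glia and eye development, has 24 annotated TSSs along chromosome 2, and 6 of them lay within 1000 bp of its peak. The peak, from 105676187 to 105676536, was 350 bp wide, with its edge 58 bp downstream of the TSS at 105676129. The TSS of the principal transcript, at 105668900, lay 7287 bp upstream of the peak. The peak therefore counts at internal starts and not at the first one, and it is not counted when each gene has 1 reference TSS. It had a GC content of 69.1% and a ratio of observed to expected CpG of 0.900.

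*Pbx3* encodes a cofactor with which Hox and Meis proteins bind DNA. Its peak on chromosome 2, from 34372549 to 34373282, measured 734 bp and included the most upstream TSS, at 34373142. The principal TSS lay 505 bp outside the peak. *Pbx2*, which encodes a protein of the same kind, had its nearest peak 3.70 kb from a TSS, and that peak was 121 bp from a TSS of the neighbouring gene *Notch4*.

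*Pou3f3*, a POU factor of cortical progenitors and neurons, has 1 annotated TSS, at 42695768 on chromosome 1. Its peak of 433 bp, from 42695248 to 42695680, ended 88 bp upstream of it. The starts of the noncoding genes *AC122898.1* and *Pantr1*, at 323 and 406 bp from the peak, lay on its other side, so the interval sits between *Pou3f3* and the divergent gene *Pantr1*, inside *AC122898.1*, which is transcribed in the direction of *Pou3f3*. *Pou3f2*, its close relative with overlapping roles, had its nearest peak 5734 bp upstream of the TSS.

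A noncoding start also lay close to the peaks at *Pou2f1*, *Irx5* and *Pax5*. *Pou2f1* encodes Oct-1, a POU factor found in most tissues, and its peak on chromosome 1 (166002939 to 166003543, 605 bp) overlapped the start of the noncoding gene *Gm26665* and lay 261 bp upstream of *Pou2f1*. Because the start of *Gm26665* is the nearer one, *Pou2f1* loses the peak when each peak is given to 1 gene. Of 14 annotated TSSs of *Pou2f1*, 7 lay within 1000 bp of it, while that of the principal transcript lay 68039 bp away.

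*Irx5*, an Iroquois gene known from the heart and retina, had a peak of 752 bp on chromosome 8, from 92356841 to 92357592. It ended 33 bp upstream of the first TSS and lay 721 bp from the start of the divergent noncoding gene *Crnde*. A second peak of 556 bp, from 92354719 to 92355274, lay 490 bp from a start of *Crnde* and 2351 bp from that of *Irx5*. No other Iroquois gene had a peak within 70 kb, the closest being *Irx4* at 70.5 kb.

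*Pax5*, which commits B lymphocytes and acts at the border of midbrain and hindbrain, and *Lhx4*, known from the pituitary and motor neurons, are not regulators named for the hippocampus. The peak at *Pax5* (chromosome 4, 44703472 to 44703856, 385 bp) lay between a pair of internal starts, 59 bp upstream of that at 44703413 and 150 bp downstream of that at 44704006, and the TSS of the principal transcript, at 44710487, was 6631 bp away. The start of *5730488B01Rik*, a transcript to be experimentally tested, lay 672 bp from it. Another Setd1a peak in *Pax5* lay nearer to the principal TSS, at 5801 bp, and its bounds and width are not reported here. The peak at *Lhx4* (chromosome 1, 155742409 to 155743224, 816 bp) lay 382 bp upstream of the principal TSS and 8460 bp downstream of the other one, and no other gene had a TSS within 1000 bp of it.

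Of 18 genes known from the forebrain or neural stem cells that were listed by name, 5 had a promoter peak, namely *Lhx2*, *Otx1*, *Pax6*, *Pbx3* and *Pou3f3*. That share, 27.8% (12.5% to 50.9%), was near the 22.5% of all protein-coding genes, which lies within its interval. Among the others, the nearest peak was 49.7 kb from *Emx1* and 79.1 kb from *Emx2*, which pattern the cortex and hippocampus. It was 52.3 kb from *Six3*, 80.6 kb from *Gsx2*, 103.9 kb from *Nkx2-2*, 188.4 kb from *Dlx1* and 172.5 kb from *Dlx2*, which act in the ventral forebrain and the eye field. *Meis1* and *Meis2*, which encode partners of Pbx proteins, lay farthest along with *Nkx2-1*, at 898.6 kb, 909.7 kb and 693.4 kb.

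Whole families had no peak within 1000 bp of a TSS. These were the Nkx (14 genes), Dlx (6), sine oculis homeobox (6), Meis (3), Msx (3), Emx (2) and Gsx (2) families beside the Hox clusters. Within the Nkx family, whose members act in the ventral neural tube, gut and heart, *Nkx6-3* came closest at 3043 bp, and that peak was 250 bp from the start of the noncoding gene *Gm15816*. *Nkx6-1* lay farthest of all 118 genes from a peak, at 1146 kb. The closest gene beyond the limit of 1000 bp was *Pax4*, a gene of the endocrine pancreas, with a peak 1589 bp upstream of its TSS. Of the genes within the limit, *Lhx4* at 382 bp and *Pou2f1* at 261 bp lay farthest from their peak.

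The Hox clusters were counted on their own, because their 39 genes share 4 short regions. No Hox gene had a peak within 1000 bp of a TSS, and the Wilson interval of 0 of 39 reaches up to 8.97%. The 39 genes are not independent of each other, since neighbouring genes share the same stretch. From the first to the last gene the clusters span 105.3 kb (Hoxa), 173.9 kb (Hoxb), 115.8 kb (Hoxc) and 96.8 kb (Hoxd), or 491.8 kb together. They held 1 peak, where the number of peaks per bp over chr1 to chr19 would give 1.38. A count this small cannot tell whether the density in the clusters was below or above that of the genome. The peak also crosses the outer end of the Hoxa cluster.

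Outside the clusters, the first peak beyond *Hoxa13* lay 452.7 kb away at the TSS of *Tax1bp1*. The flanking peaks of the Hoxb cluster lay 118.2 kb from *Hoxb13*, at the TSS of *Atp5g1*, and 461.4 kb from *Hoxb1*, 37 bp from the TSS of *Nfe2l1*. Those of the Hoxc cluster lay 187.3 kb from *Hoxc13* and 178.1 kb from *Hoxc4*, the latter at the TSS of *Cbx5*. For the Hoxd cluster they lay 89.1 kb from *Hoxd13*, at the TSS of *Lnpk*, and 894.2 kb from *Hoxd1*, 1 bp from the TSS of *Hnrnpa3*. The exceptions to this placement at the TSS of another gene were the peaks 91.1 kb before the Hoxa cluster and 187.3 kb before *Hoxc13*, whose nearest TSSs, of *Halr1* and *Calcoco1*, lay 38418 and 10597 bp away.

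The distance from each gene to its nearest peak had a higher median than over genes in general. The median was 112.7 kb over the 118 genes, with quartiles of 40.4 and 222.4 kb, beside 49.6 kb over all protein-coding genes, with quartiles of 4.09 and 189.4 kb. For the Hox genes the median was 132.8 kb and for the rest 85.0 kb. No Hox gene was farther than 289.6 kb (*Hoxb1*) from a peak, so that at long distances the Hox curve passes above that of all genes. Within 10 kb of a TSS there was a peak for 18 of the 118 genes, or 15.3%, beside 29.5% of all genes.

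**Figure D3:**
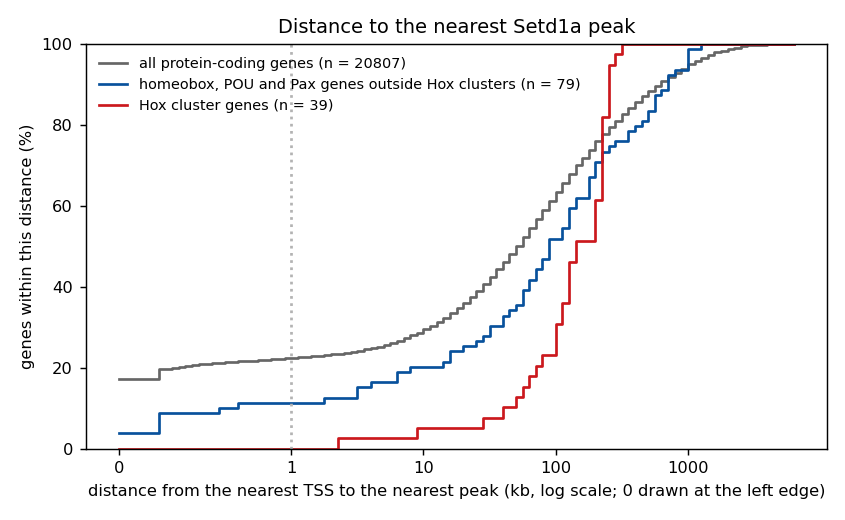
Share of genes (y axis, %) with a Setd1a peak within a given distance of a TSS (x axis, kb, log scale with 0 at the left edge), for all protein-coding genes (grey), the 79 genes outside the Hox clusters (blue) and the 39 Hox genes (red). At the dotted line, 1000 bp, the curves stand at 22.5%, 11.4% and 0%.

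Peaks away from the promoters were counted for the 118 genes only, with no like count over all genes. In the gene bodies and 10 kb around them, more than 1000 bp from any TSS of the gene, there were 12 peaks at 11 genes, and 99 genes had neither such a peak nor one at a promoter. Such a peak in the gene body was found at 4 genes, *Pou2f2* and *Pou2f3* among them. Those in *Pou2f2* and *Pou2f3*, POU genes known from lymphocytes and from skin and taste cells, were 270 and 280 bp wide. Several of the rest lay at the TSS of a neighbour, such as *Agpat1* beside *Pbx2*, *Zfp574* beside *Pou2f2* and *Tcf19* beside *Pou5f1*.

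Promoter base composition was compared, because Setd1a peaks in this list are more frequent at CpG-rich promoters. A peak lay within 1000 bp of an annotated TSS for 44.9% of the CpG-rich genes, but for 11.3% of the other genes. CpG-rich here means the top 33.3% of all protein-coding genes by the ratio of observed to expected CpG. This ratio was taken in the 500 bp on each side of 1 reference TSS per gene. The 118 genes were not poor in CpG. Their median ratio was 0.674, with quartiles of 0.569 and 0.759, beside 0.586 over all genes, and 35 of 118 (29.7%) were CpG-rich. Of these 35 CpG-rich genes 3 had a peak (*Pbx3*, *Irx5* and *Otx1*), or 8.57% (2.96% to 22.4%). Of the 83 other genes 6 had one, or 7.23% (3.36% to 14.9%).

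At the reference TSS, genes with and without a peak were set side by side. For *Pax6*, *Pax5* and *Pou2f1* that TSS lies 7287, 6631 and 68039 bp from the peak used here. Their values (0.568, 0.679 and 0.189) therefore do not describe the DNA at that peak, where the ratio was 0.900, 0.832 and 1.06. The ratio at the other *Pax5* peak, 5801 bp from the reference TSS, is not reported here. The median ratio was 0.679 for the 9 genes with a peak and 0.674 for the 109 without one, and the median GC content was 60.1% and 58.7%. Over all protein-coding genes the medians were 0.788 with and 0.444 without a peak. Among the Hox genes, 14 of 39 were CpG-rich, and 0 of these 14 had a peak, with a Wilson interval up to 21.5%.

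**Figure D4:**
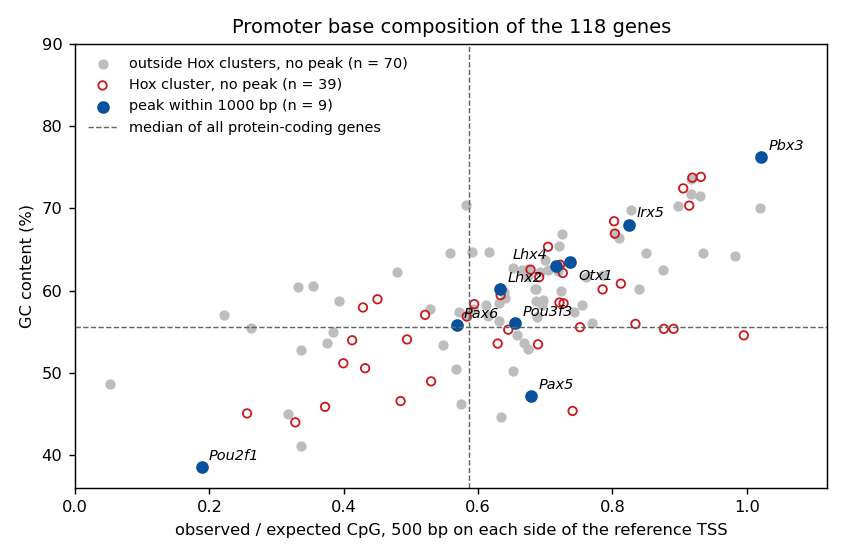
Ratio of observed to expected CpG (x axis) against GC content in % (y axis) in the 500 bp on each side of the reference TSS of the 118 genes, with the 9 genes that have a peak within 1000 bp in blue, Hox genes as red rings and the medians of all protein-coding genes dashed. The blue points spread from 0.189 (*Pou2f1*, whose reference TSS is not the one at the peak) to 1.02 (*Pbx3*) among genes without a peak.

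The number of annotated starts also differed, with a median of 2 TSSs for the 118 genes and 3 for all genes. A gene with more starts has more places at which a peak can count. With 1 reference TSS per gene, 6 of the 118 genes had a peak within 1000 bp, or 5.08%, and 20.8% of all genes did. Of the 37 genes with a single annotated TSS, 1 had a peak (*Pou3f3*), or 2.70%, beside 8.97% of the 4406 such genes overall. Of the 81 genes with more starts, 8 had a peak, or 9.88%, beside 26.1% overall.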

How the data were processed

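The authors trimmed the reads with Trimmomatic 0.32, mapped them uniquely to mm10 with Bowtie2 2.1.0, filtered by mapping quality with SAMtools 0.1.18 and called peaks with MACS2 2.2.8 at default parameters (versions per the submitters' processing notes). The deposited values are the first and last base, in bp, of the peaks found in both Setd1a libraries. How the bounds of shared peaks were set, and whether IgG served as control, is not given in the sources used here. Starts were read as 1-based.

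Distances were computed from the nearer edge of a peak to each annotated transcript TSS with Python 3.11.15, numpy 2.4.6, pandas 2.3.3, pysam 0.24.0 and samtools 1.23.1, and figures with matplotlib 3.10.9. A peak could count for several genes. The reference TSS was that of the APPRIS principal coding transcript, the longest on ties. The distance step was tested on simulated data. The genes named are those with a peak within 3000 bp, the ends of the Hox clusters and a list of forebrain genes. Others were named after their values were seen, as the nearest or farthest of a family or for a peak nearby. Results for some genes are not reported here. Genes and lists were chosen with earlier results of these data known. Alternatives covered the window, the TSSs, the assignment, the peak width, merging and the midpoint. The depth per library is unknown.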

Additional observations from a re-analysis of the deposited data

How the results depend on the processing

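No paired analysis was possible because both Setd1a libraries are merged into 1 set of intervals, and for the same reason no replicate was left out. In 12 alternatives of window, TSSs, assignment, width, merging and midpoint, 3 to 11 of the 118 genes had a peak (2.54% to 9.32%) and 12.8% to 24.1% of all protein-coding genes did. The share was the lower one for the 118 genes in each of the 12. The count of 9 fell to 3, all outside the Hox clusters, when a peak had to overlap a TSS, and to 5, again all outside them, with peaks of at least 500 bp, where the count over all genes fell to 2672. The Hox count rose from 0 to 1 within 3000 bp. With CpG-rich defined as above the median of all genes, 7 of 83 genes in place of 3 of 35 were CpG-rich with a peak, a share of 8.43% in place of 8.57%, beside 39.3% in place of 44.9% of all such genes. With peaks of at least 500 bp the median distance rose from 112.7 to 215.5 kb, an alternative added after seeing the data. *Otx1* and *Pbx3* had a peak in all 12 alternatives, whereas *Pax5* lost it in 4, *Pax6* and *Pou2f1* in 3 each, *Lhx2* and *Pou3f3* in 2 each and *Irx5* and *Lhx4* in 1 each. The causes were not tested.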

Other observations

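Other families of developmental transcription factors were counted in the same way. Of 80 Sox, Fox, Tbx, Gata and Zic genes, which act in germ layer and organ formation, 12 had a peak within 1000 bp of a TSS, or 15.0% (95% Wilson confidence interval 8.79% to 24.4%), beside 22.5% of all protein-coding genes, 4 of them among the 18 Sox genes and 6 among the 41 Fox genes. Of the 43 of these 80 genes with a CpG-rich promoter, 10 had a peak, beside 44.9% of all CpG-rich protein-coding genes. Among the 16 Klf genes, whose zinc fingers bind GC-rich DNA, 7 had a peak, and among 385 Zfp genes 108 did, or 28.1%. The differences between families were not tested.

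The nearest protein-coding neighbours of the 118 genes that are not homeobox, POU or Pax genes numbered 76, of which 23 had a peak within 1000 bp of a TSS, or 30.3% (21.1% to 41.3%), beside 22.5% of all protein-coding genes. Of the 68 neighbours of genes without a peak 16 had one, or 23.5% (15.0% to 34.9%). Of the 39 neighbours with a CpG-rich promoter 16 had one, beside 44.9% of all such genes. Of the 8 neighbours of Hox genes 0 had one (upper bound 32.4%), and 1 of them was CpG-rich. This count was chosen after the other results were seen.

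Short sequence motifs were searched on both strands in 300 bp at the middle of each peak. GGGCGG, the GC box, occurred in 3 of the 9 peaks (*Pbx3*, *Pou2f1* and *Pou3f3*) and in 66.9% of the 3999 promoter peaks. CCAAT, the NF-Y box, occurred in 3 of 9 (*Otx1*, *Pbx3* and *Pou3f3*) and in 32.1%. TAATTA, the core bound by many homeodomains, and ATGCAAAT, the octamer bound by POU factors, occurred in 0 of 9, and in 1.23% and 0.675% of promoter peaks. TGACAG, a Meis site, occurred in 1 of 9 (*Otx1*) and in 14.3%, and CACGTG and TGACGTCA in 0 of 9 and in 9.03% and 3.13%. In the 300 bp around the reference TSS, from 250 bp before it, CACGTG, an E-box, occurred in 16.1% of the 118 genes and 7.83% of all protein-coding genes, CCAAT in 52.5% and 38.2%, and GGGCGG in 55.9% and 46.2%. The other 4 motifs had lower shares in the 118 genes, with 3.39% and 4.92% for TAATTA, 0.848% and 1.62% for ATGCAAAT, 15.3% and 17.7% for TGACAG and 1.70% and 2.49% for TGACGTCA.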
